A study of Mus musculus with 6 samples.

Results

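Amino acids enter and leave mammalian cells through solute carriers, membrane proteins of the SLC families. Described here are 61 protein-coding genes of 7 such families (Slc1, Slc3, Slc6, Slc7, Slc36, Slc38 and Slc43) in mouse embryonic stem cells (ESC) and in epiblast-like cells (EpiLC). They were taken by symbol from the GENCODE annotation of GRCm38, out of 51826 Ensembl genes in the deposited count table. The rule used names alone and no measured value. Members numbered 7 in Slc1, 2 in Slc3, 19 in Slc6, 15 in Slc7, 4 in Slc36, 11 in Slc38 and 3 in Slc43.

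Both cell states came from V6.5, a mouse ESC line, labelled wild type, with 3 libraries each of total RNA depleted of ribosomal RNA. ESC were kept in LIF and 2i, the pair of GSK3 and MEK inhibitors that holds naive pluripotency. EpiLC were cells on day 3 without LIF and without 2i. All cells grew in Knockout DMEM with 15% serum, L-glutamine and non-essential amino acids, so the amino acid supply named in the labels was the same in both states. Nothing in the labels says that the libraries of a state came from separate cultures, and p-values measure the spread between these libraries, which may be technical. Fewer cells expressing a gene and less RNA per cell cannot be told apart in such bulk RNA.

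Library totals ran from 9710410 to 22879812 counts, and 3 counts, the limit that a count of 0 allows, were 0.135 to 0.301 CPM, the unit used here for counts over the scaled library total. That limit covers counting error only. The states carried their labelled markers. All 12 naive markers fell and their summed level went from 3166 to 3261 CPM in ESC to 161 to 173 CPM in EpiLC, while 11 of 12 formative epiblast markers rose, with the summed level going from 305 to 377 CPM to 1733 to 2043 CPM. Markers of other cell types also differed: summed over each list, neural markers stood at 97.8 to 136 CPM in ESC and 433 to 471 CPM in EpiLC, mesendoderm markers at 5.71 to 7.67 and 42.1 to 55.9 CPM, trophectoderm markers at 92.7 to 99.6 and 241 to 291 CPM, and fibroblast markers at 12.7 to 17.4 and 26.4 to 30.7 CPM. Primitive endoderm markers stood at 173 to 217 CPM in ESC and 202 to 213 CPM in EpiLC. Within that sum Lama1 fell from a mean of 123 to 10.3 CPM, while Col4a1 rose from 54.4 to 179 CPM. The fibroblast markers Dcn, Postn and Fap were at 0 in every ESC library and Lum and Fap in every EpiLC library, as was Dcx of the neural list in ESC. Of 6 tested fibroblast markers 4 were higher in EpiLC, among them Dcn at a mean of 4.33 CPM, 1 was lower and 1 not called. Within the trophectoderm list members went both ways: Krt18 and Krt8 rose, while Tfap2c and Plet1 fell and Eomes and Gata3 were not called. Of 7 tested neural markers 5 were higher in EpiLC, 0 lower and 2 not called (Tubb3 and Neurod1). In EpiLC the neural sum was mostly Nes, at a mean of 352 CPM. Mean Pax6 also rose, from 0.198 to 9.14 CPM, and Map2 from 2.87 to 20.4 CPM. Whether cells of other types were present, and what part they had in the transporter values, was not tested. ESC replicate 3 stood apart: the median gene differed from ESC replicates 1 and 2 by 0.261 and 0.252 on the log2 scale, against 0.0916 between those 2 libraries. Where leaving it out moved a call or a fold, or where it was the extreme library of a described gene, values without it are given for the main cases.

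Slc3a2 encodes the heavy chain CD98, which pairs with several Slc7 light chains and carries them to the cell surface. Slc1 carriers take up glutamate or small neutral amino acids, Slc38 carriers take up glutamine and alanine with sodium, and Slc6 holds the carriers of neurotransmitters, taurine and creatine beside amino acid carriers. Several members, among them Slc38a9 and Slc36a1, sit on lysosomes, where they take part in the amino acid signal to the growth kinase complex mTORC1. Pluripotent mouse cells are known for a high demand for glutamine and threonine.

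Of the 61 members, 39 had enough counts to be tested, and 22 did not. Of the 39, 33 (84.6%) were called at an adjusted p under 0.05 by edgeR's quasi-likelihood test, against 64.6% of the 14996 genes tested. Counted by direction, 21 were higher in EpiLC (32.0% of all genes were) and 12 lower (32.6% of all genes). With at least a 2-fold difference, 22 were called (56.4%), 16 higher and 6 lower, against 29.4% of all genes, 17.0% higher and 12.4% lower. The 3 libraries of the 2 states did not overlap in 35 members (89.7%), against 70.2% of all genes. The median log2 fold change (EpiLC minus ESC) was 0.54 over the tested members and 0.01 over all genes. These counts lean on the filter, since 7 members passed it through EpiLC alone and 4 through ESC alone, which favoured a difference in such members. The 7 were Slc1a6, Slc6a2, Slc6a17, Slc7a10, Slc7a11, Slc7a14 and Slc36a4, and the 4 included Slc1a1, Slc6a7 and Slc38a5.

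**Figure D1:**
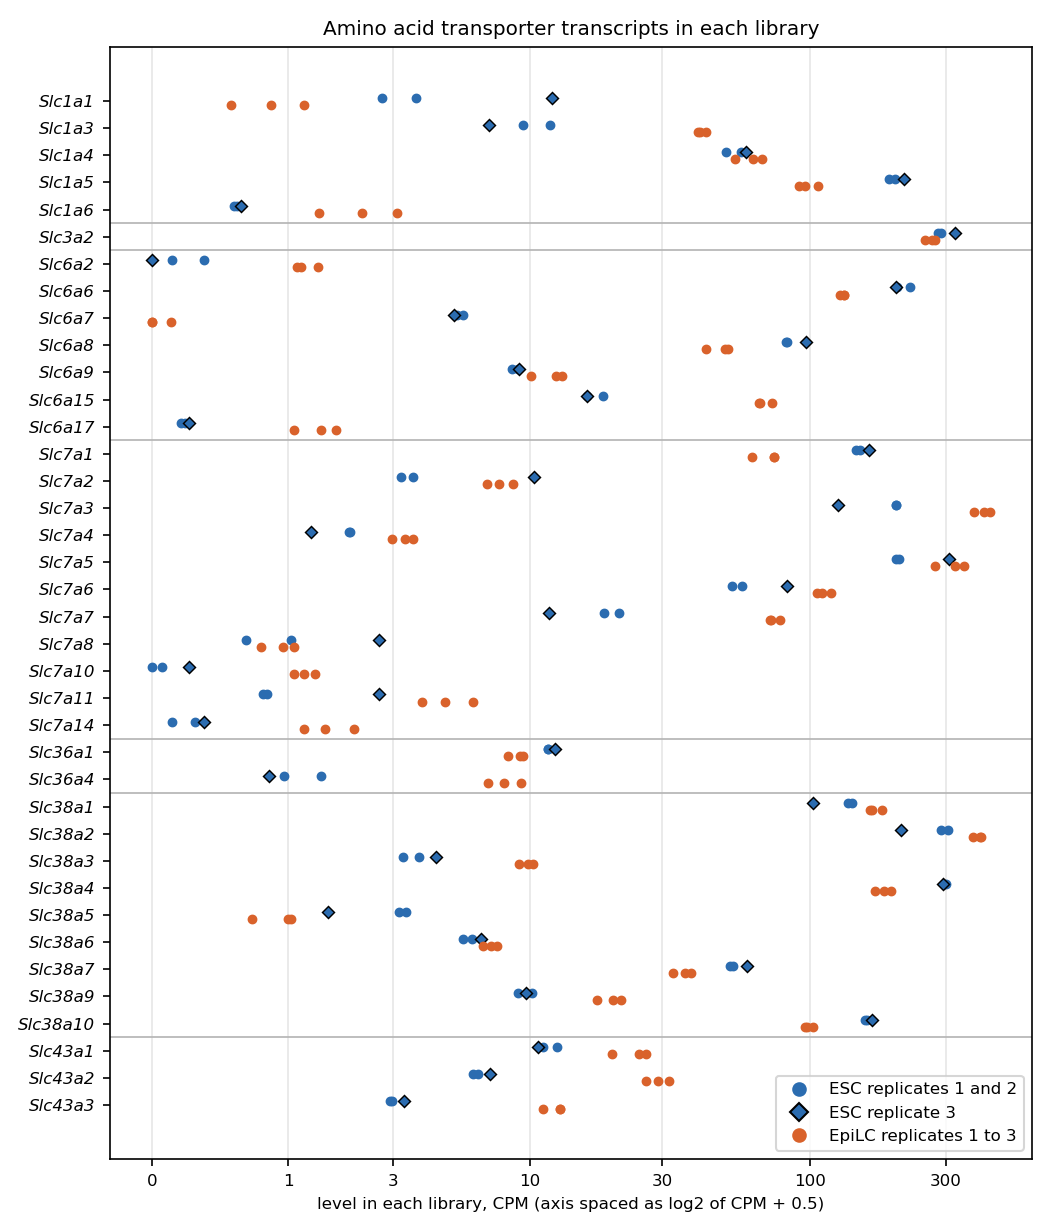
Level of each tested member in every library, in CPM on an axis spaced as log2 of CPM + 0.5, for members with a mean of at least 1 CPM in either state, 1 left out; blue points are ESC (diamond: replicate 3), orange points EpiLC, and grey lines part the families. Slc7a3 sits at 125 to 201 CPM in ESC and 376 to 428 in EpiLC, Slc38a4 at 292 to 300 and 169 to 193.

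Per kilobase of exon, which lets genes of different length be compared, the summed level of all 61 members was 609, 610 and 623 CPM per kilobase in ESC replicates 1 to 3 and 648, 694 and 711 in EpiLC replicates 1 to 3. Over the families it moved in different directions. Slc7 went from 172 ± 6.92 to 293 ± 20.3 (SD, n = 3 libraries per state, here and below) and Slc43 from 5.20 ± 0.168 to 15.0 ± 1.63. Slc1 went from 91.3 ± 6.14 down to 61.9 ± 4.25 and Slc6 from 65.0 ± 1.38 to 54.7 ± 1.38. Slc38 stood at 189 ± 12 and 177 ± 7.01, with libraries that overlapped here but not by the length of the longest transcript (193 ± 10.2 and 173 ± 7.12), and Slc36 at 2.39 ± 0.0785 and 2.92 ± 0.13. These sums were not tested. In ESC 3 members stood above 69 CPM per kilobase: Slc3a2 at 89.0 ± 6.56, Slc1a5 at 72.8 ± 4.39 and Slc38a4 at 69.4 ± 0.961. In EpiLC the corresponding members were Slc7a3 at 139 ± 9.03, Slc7a5 at 89.5 ± 10.6, Slc38a2 at 83.3 ± 2.75 and Slc3a2 at 79.3 ± 3.13, the last 3 apart by less than the SD of Slc7a5.

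**Figure D2:**
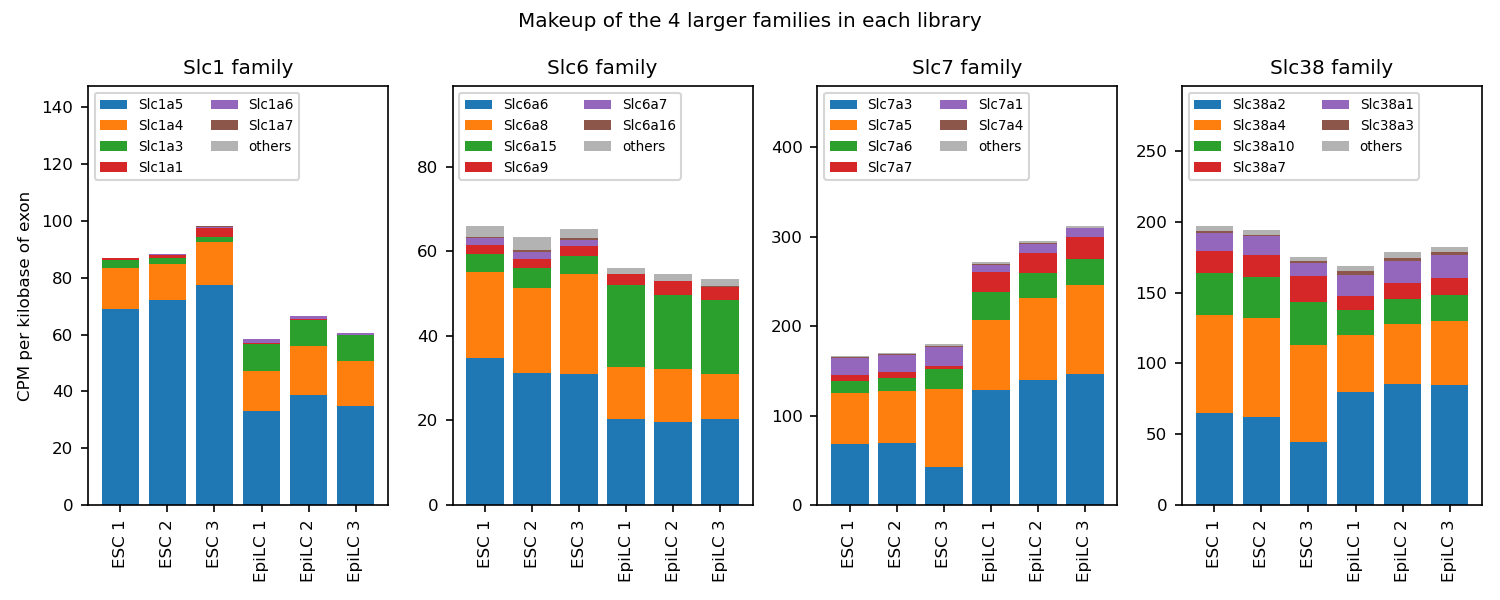
Stacked levels, in CPM per kilobase of exon, of the members of the Slc1, Slc6, Slc7 and Slc38 families in each of the 6 libraries; 6 members of each family have a colour each and grey holds the others. The Slc7 bars reach 166 to 180 in ESC and 272 to 312 in EpiLC.

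Among the carriers of cationic amino acids (arginine, lysine and ornithine), Slc7a3 led in both states and the balance between it and Slc7a1 differed. Slc7a3, which encodes CAT3 (ENSMUSG00000031297, chromosome X, 101079210 to 101086020 on GRCm38, as for all gene positions), had 200, 201 and 125 CPM in the 3 ESC libraries, in order of replicate here and below, and 376, 409 and 428 CPM in the EpiLC libraries. Every EpiLC library lay above every ESC library, and ESC replicate 3 was the lowest. Slc7a3 rose 2.30-fold (log2 fold change 1.20, SE 0.17, edgeR adjusted p = 0.000349), with a log2 fold change of 1.0 when ESC replicate 3 was left out. Slc7a1, which encodes CAT1, the form found in most tissues (ENSMUSG00000041313, chromosome 5, 148327410 to 148399904), stood at 150, 145 and 161 CPM in ESC and 62.6, 74.6 and 74.6 CPM in EpiLC. It fell 2.15-fold, again without overlap (log2 fold change -1.10, SE 0.09, adjusted p = 1.38e-05). Slc7a2, which encodes CAT2, was at 3.22, 3.60 and 10.4 CPM in ESC and 6.93, 7.70 and 8.66 CPM in EpiLC, and was not called (adjusted p = 0.270). Without ESC replicate 3, its highest library, the log2 fold change was 1.17 (adjusted p = 9.72e-06). Per kilobase, Slc7a3 made up 73.5 ± 6.91% of the sum of the 3 CAT genes in ESC and 93.1 ± 0.273% in EpiLC, and the share of Slc7a1 went from 25.6 ± 6.16% to 6.28 ± 0.268%. The sum itself was 88.9, 88.7 and 65.6 CPM per kilobase in ESC and 138, 151 and 158 in EpiLC.

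Of 6 light chains that pair with CD98, 4 rose (32.0% of all genes were higher) and 2 were not called, as was the heavy chain. Of the 4 that rose, Slc7a10 and Slc7a11 passed the filter through EpiLC alone, and the other 2 were Slc7a6 and Slc7a7. Slc3a2 (ENSMUSG00000010095, chromosome 19, 8706882 to 8723369) stood at 281, 289 and 322 CPM in ESC and 254, 268 and 274 CPM in EpiLC. The states did not overlap, yet the difference was small and missed the threshold (log2 fold change -0.16, 95% interval -0.33 to -0.00, edgeR adjusted p = 0.0710, 0.0307 to 0.281 over the alternatives). It passed without the filter on low counts (0.0307), without ESC replicate 1 (0.0444) and without ESC replicate 3 (0.0343). Slc7a5, which encodes LAT1, the main importer of leucine and other large neutral amino acids (ENSMUSG00000040010, chromosome 8, 121881150 to 121907694), stood at 200, 206 and 307 CPM in ESC and 274, 322 and 348 CPM in EpiLC. ESC replicate 3 lay within the EpiLC range, and the gene was not called (log2 fold change 0.41, SE 0.17, adjusted p = 0.0607, 1.88e-06 to 0.191 over the alternatives). Without ESC replicate 3 the log2 fold change was 0.62 (adjusted p = 1.88e-06). It also passed by DESeq2 (0.0427), with upper quartile scaling (0.0490), with library totals (0.0478) and with the replicate number as a block (0.00951).

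Both y+L light chains, which export cationic amino acids in exchange for neutral ones, rose. Slc7a7 (ENSMUSG00000000958, chromosome 14, 54369442 to 54417780) stood at 18.6, 21.1 and 11.8 CPM in ESC and 72.7, 72.0 and 78.5 CPM in EpiLC. It rose 4.27-fold with no overlap (log2 fold change 2.09, SE 0.18, adjusted p = 2.20e-05). Its exons share 7.0% of their bases with Oxa1l on the opposite strand, and Oxa1l was lower in EpiLC (log2 fold change -0.72). Slc7a6 (ENSMUSG00000031904, chromosome 8, 106168857 to 106198706) stood at 52.9, 57.7 and 83.0 CPM in ESC and 118, 106 and 110 CPM in EpiLC, and rose 1.74-fold (log2 fold change 0.80, SE 0.16, adjusted p = 0.00228), or by 1.0 on the log2 scale when ESC replicate 3 was left out. Slc7a8, which encodes LAT2, was at 1.41 ± 1.07 and 0.905 ± 0.187 CPM and was not called (log2 fold change -0.44, but 0.14 with ESC replicate 3 left out). For Slc7a10, a carrier of alanine, serine and D-serine, the 3 ESC libraries together gave 3 counts and the EpiLC libraries 40 (ratio 21.5, exact 95% interval 6.84 to 109). Its log2 fold change was fitted at 4.23, at 3.62 when ESC replicate 1 was left out and at 5.22 when ESC replicate 3 was. Slc7a10 is uncertain, since Lrp3 overlaps 17.9% of its exon bases on the opposite strand and was itself higher in EpiLC (log2 fold change 1.35).

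Summed per kilobase, the 6 light chains (Slc7a5, Slc7a6, Slc7a7, Slc7a8, Slc7a10 and Slc7a11) stood at 76.5, 80.4 and 113 in ESC replicates 1 to 3 and at 133, 143 and 154 in EpiLC. Set over Slc3a2 in the same library, they came to a ratio of 0.910, 0.931 and 1.18 in ESC and of 1.75, 1.79 and 1.87 in EpiLC. The ratio did not overlap between the states, and it was chosen after the values were seen and not tested. Slc7a5 made up 74.6 ± 2.11% of the light-chain sum in ESC and 62.4 ± 3.11% in EpiLC, while the share of Slc7a7 went from 6.33 ± 2.70% to 16.3 ± 0.751%. In the light-chain sum ESC replicate 3 lay between the other ESC libraries and EpiLC, and in the CAT sum it lay on the far side from EpiLC.

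**Figure D3:**
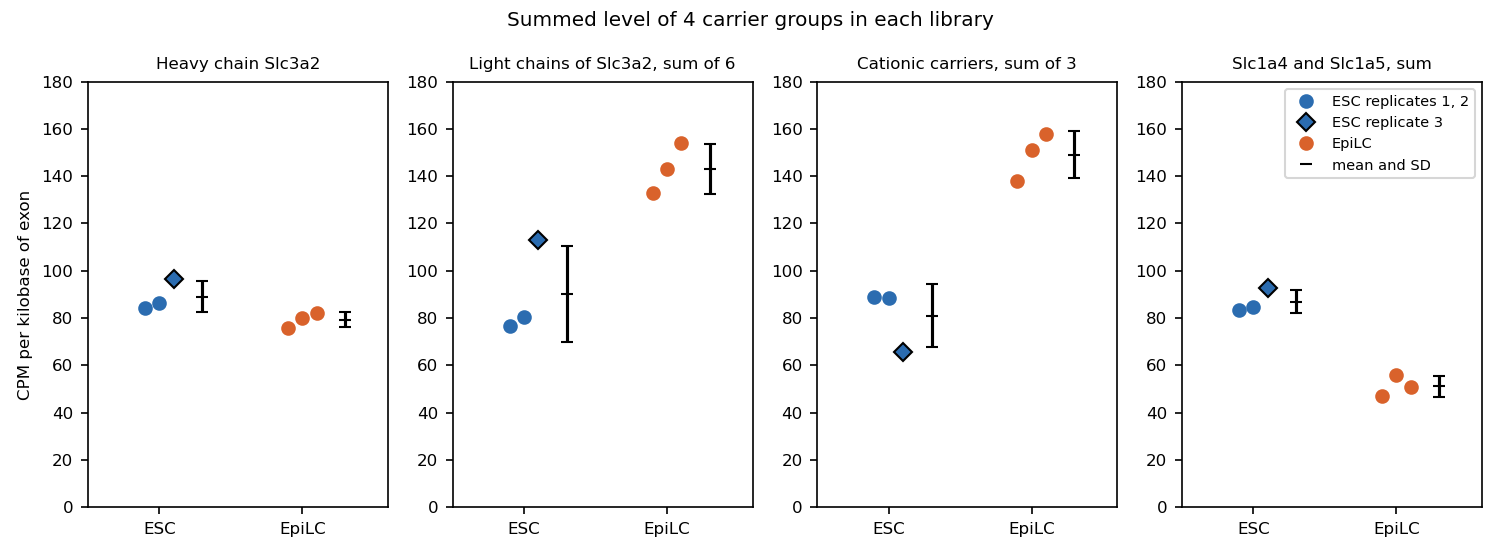
Level in CPM per kilobase of exon of the heavy chain gene Slc3a2 and summed over its 6 light chains, the 3 cationic carriers, and Slc1a4 with Slc1a5; each point is a library (diamond: ESC replicate 3), and the bar beside the points gives mean and SD of 3 libraries. The heavy chain stays at 75.9 to 96.4 in all 6 libraries while the light-chain sum goes from 76.5 to 113 in ESC to 133 to 154 in EpiLC.

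Slc7a11 encodes xCT, the light chain that imports cystine in exchange for glutamate and so feeds glutathione synthesis (ENSMUSG00000027737, chromosome 3, 49892526 to 50443614). It stood at 0.726, 0.766 and 2.61 CPM in ESC and 3.91, 6.16 and 4.82 CPM in EpiLC. The level was low in both states, but no library overlapped, and ESC replicate 3 was the highest of its group. Slc7a11 rose 4.2-fold (log2 fold change 2.07, SE 0.43, adjusted p = 0.00301), or 6.58-fold without ESC replicate 3 (log2 fold change 2.72). Of the 2 subunits of the enzyme that uses cysteine for glutathione, Gclc rose (log2 fold change 1.06) and so did Gclm (1.17), while glutathione synthetase, Gss, fell (-2.17). These 3 genes were named after their values were seen.

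Slc7a11 is a textbook target of ATF4, the transcription factor of the amino acid response, which binds amino acid response elements. The letters TGATGNAAN, on either strand, were searched in windows of 250 bases before to 50 after each start given by RefSeq on GRCm38.p6. Of 61 members 43 had a window, 64 windows in all, and 5 of those (7.81%), from 4 genes, held the letters, against 3.95% of all 32851 windows. The 4 genes were Slc7a11, Slc7a7, Slc1a4 and Slc6a21. The stretches below show where the letters lie in the 3 of these genes with enough counts and, for comparison, in Asns, the asparagine synthetase gene in which the element is best known. Capitals mark the matches, sequences run 5′ to 3′ on the gene's own strand, and a match is a description of letters, not a bound site.
Slc7a11, chr3:50443633-50443703, minus strand: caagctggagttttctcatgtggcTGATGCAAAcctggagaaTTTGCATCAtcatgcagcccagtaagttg
Slc7a7, chr14:54418054-54418104, minus strand: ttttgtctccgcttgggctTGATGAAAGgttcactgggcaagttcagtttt
Slc1a4, chr11:20332710-20332753, minus strand: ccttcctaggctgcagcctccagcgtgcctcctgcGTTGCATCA
Asns, chr6:7693224-7693269, minus strand: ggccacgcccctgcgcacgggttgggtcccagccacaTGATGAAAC
With the start base counted as 0, the matches of Slc7a11 begin at -66 and -48 and face each other on opposite strands. Those of Slc7a7 begin at -141, as printed, and at -1, the latter a site that a second window of the gene also holds. The match of Slc1a4 begins at -5 and runs over the start. Genes with these letters did not share a direction: Slc7a11 and Slc7a7 rose, Slc1a4 was not called and Asns fell. The antioxidant element TGACNNNGC was in 11 of the 64 windows (17.2%, against 12.4% of all windows). The full lysosomal CLEAR element was in 0 of 64 (0.326% of all windows). Its shorter core TCACGTGA was in 1, that of Slc36a1, where it shares bases with a match of the antioxidant letters (0.974% of all windows).

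The other Slc7 genes were low. Slc7a4, an orphan relative of the CAT proteins, rose by 0.87 on the log2 scale (SE 0.22), with 1.74 ± 0.375 CPM in ESC and 3.30 ± 0.335 CPM in EpiLC. P2rx6 overlaps 13.3% of the exon bases of Slc7a4 on the opposite strand, at means of 0.0614 and 0.0583 CPM. Slc7a14, a lysosomal member that passed the filter through EpiLC alone, rose from 0.186 ± 0.0876 to 1.59 ± 0.429 CPM. Slc7a9, Slc7a12, Slc7a13 and Slc7a15 were not tested, with at most 33 counts over the 6 libraries. Slc3a1, the heavy chain that pairs with Slc7a9, was not tested either, with 13 counts in ESC and 17 in EpiLC. Slc3a1 shares 26.5% of its exon bases with Prepl on the opposite strand. The strand setting of the counting is not known, so reads over such stretches cannot be assigned, and Slc7a7, Slc7a4, Slc3a1 and Slc1a1 are uncertain for this reason. Overlaps with other annotated genes on the opposite strand also touch Slc43a2 (9.18% of exon bases), Slc7a2 (6.95%), Slc38a10 (5.72%), Slc1a2 (1.44%), Slc6a6 (1.38%) and Slc38a9 (1.09%).

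In the Slc1 family the glutamine carrier fell and a glutamate carrier rose. Slc1a5, which encodes ASCT2, an exchanger that brings glutamine into the cell (ENSMUSG00000001918, chromosome 7, 16781340 to 16798274), stood at 190, 199 and 214 CPM in ESC and 91.6, 107 and 95.8 CPM in EpiLC. The groups lay far apart, and it fell 2.05-fold (log2 fold change -1.03, SE 0.08, adjusted p = 1.28e-05). Its close relative Slc1a4, which encodes ASCT1, a carrier of alanine, serine and cysteine (ENSMUSG00000020142, chromosome 11, 20302180 to 20332713), stood at 56.9, 50.7 and 59.5 CPM in ESC and 54.4, 67.5 and 62.9 CPM in EpiLC. The libraries overlapped and it was not called (log2 fold change 0.15, 95% interval -0.08 to 0.38, adjusted p = 0.227, 0.0458 to 0.614 over the alternatives, the lowest without ESC replicate 3). Slc1a5 made up 79.8 ± 1.37% of the family's level per kilobase in ESC and 57.4 ± 0.770% in EpiLC.

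Of the glutamate carriers, Slc1a3, known as GLAST (ENSMUSG00000005360, chromosome 15, 8634124 to 8710764), stood at 11.9, 9.42 and 7.06 CPM in ESC and 42.9, 40.9 and 40.4 CPM in EpiLC. It rose 4.31-fold without overlap (log2 fold change 2.11, SE 0.16, adjusted p = 1.16e-05). GLAST also marks radial glia, and neural markers were higher in EpiLC as well (summed levels above), a link that was not tested. Slc1a1, known as EAAC1 (ENSMUSG00000024935, chromosome 19, 28835049 to 28913960), stood at 2.70, 3.69 and 12.1 CPM in ESC and 0.803, 1.20 and 0.446 CPM in EpiLC. It fell 6.77-fold (log2 fold change -2.76, SE 0.78, adjusted p = 0.0140). Slc1a1 passed the filter through ESC alone, which favoured a fall. ESC replicate 3 held most of its ESC level, and without that library the fall was 3.94-fold (adjusted p = 3.89e-05), while without EpiLC replicate 3 the gene was not called (adjusted p = 0.0553). Slc1a1 shares 31.9% of its exon bases with 4430402I18Rik on the opposite strand, a gene at means of 0.0300 and 0.210 CPM. Slc1a6, another glutamate carrier, rose from 0.495 ± 0.0278 to 2.25 ± 0.842 CPM (log2 fold change 2.16), and passed the filter through EpiLC alone. Slc1a7 had 41 counts in ESC and 2 in EpiLC, and Slc1a2 0 and 5, too few for the test.

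**Figure D4:**
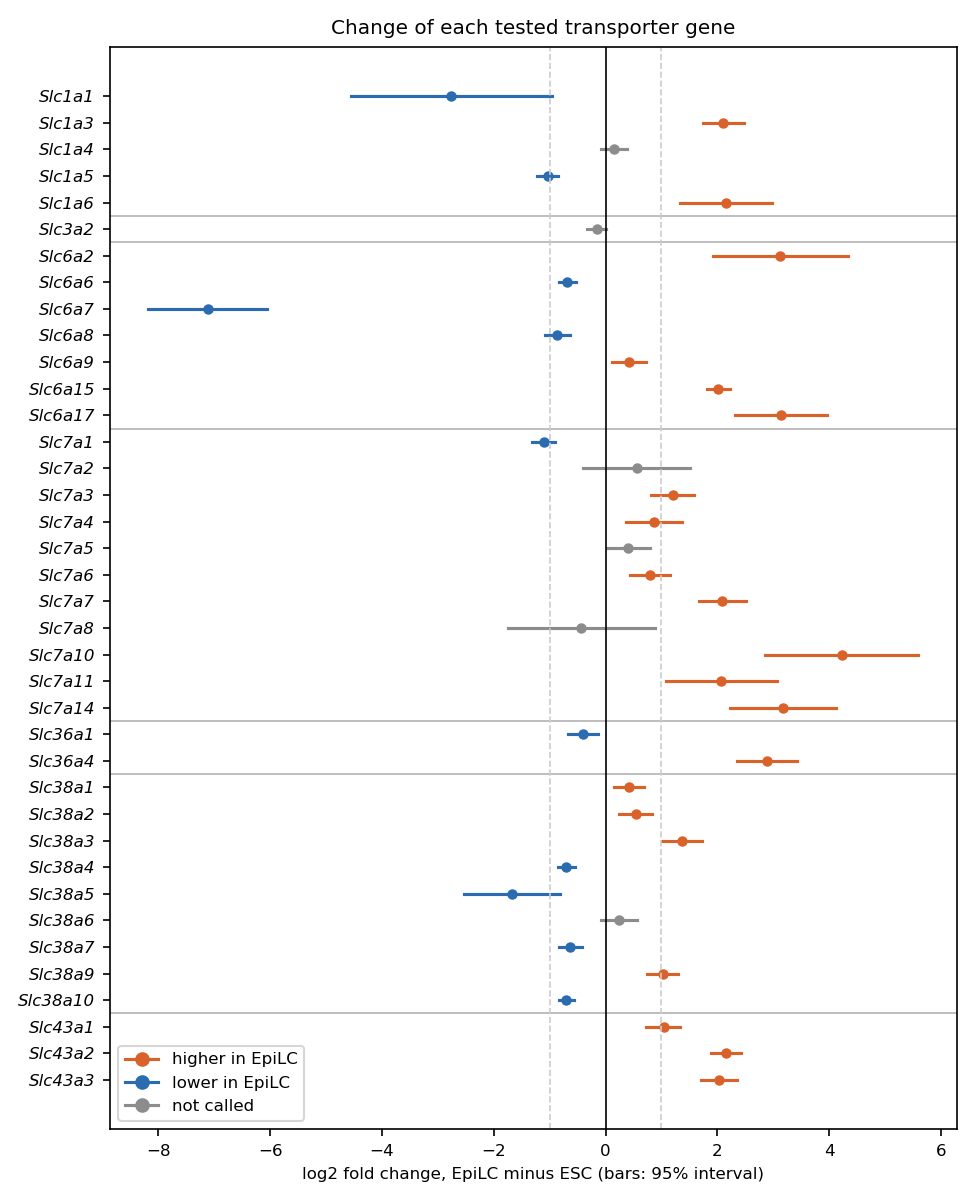
Log2 fold change, EpiLC minus ESC, of 38 of the 39 tested members with 95% intervals, grouped by family; orange is called higher in EpiLC, blue called lower, grey not called, and dashed lines mark a 2-fold difference. The 3 Slc43 genes lie at 1.04 to 2.15, and Slc6 runs from -7.12 to 3.14.

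The glutamine and alanine carriers of system A moved against each other. Slc38a2, which encodes SNAT2, the member that cells raise when short of amino acids (ENSMUSG00000022462, chromosome 15, 96687392 to 96699730), stood at 304, 288 and 208 CPM in ESC and 374, 398 and 394 CPM in EpiLC. It rose 1.46-fold (log2 fold change 0.54, SE 0.13, adjusted p = 0.00649). ESC replicate 3 was the lowest library, and when it was left out the log2 fold change was 0.38. Slc38a1, which encodes SNAT1 (ENSMUSG00000023169, chromosome 15, 96571418 to 96642913), stood at 136, 140 and 102 CPM in ESC and 162, 165 and 179 CPM in EpiLC. It rose 1.34-fold (log2 fold change 0.42, adjusted p = 0.0137, 0.00027 to 0.0616 over the alternatives), a call lost without the filter on low counts (0.0601) and without EpiLC replicate 3 (0.0616). Slc38a4, which encodes SNAT4 and is known as an imprinted gene (ENSMUSG00000022464, chromosome 15, 96994820 to 97055956), stood at 294, 300 and 292 CPM in ESC and 169, 182 and 193 CPM in EpiLC. It fell 1.63-fold, with little spread within either group (log2 fold change -0.70, SE 0.06, adjusted p = 3.27e-05). Summed per kilobase, the 3 genes came to 147, 145 and 123 in ESC (138 ± 13.6) and to 142 ± 5.92 in EpiLC, with libraries that overlapped. By the length of the longest transcript the order was reversed, at 136 ± 11.9 in ESC and 133 ± 5.91 in EpiLC. Within the first sum Slc38a4 went from 50.5 ± 4.78% to 30.1 ± 0.781% and Slc38a2 from 41.1 ± 4.22% to 58.9 ± 1.03%.

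The system N pair, which moves glutamine and histidine in either direction, also went opposite ways at low level. Slc38a3 (SNAT3) rose 2.59-fold from 3.79, 3.29 and 4.44 CPM to 9.84, 10.3 and 9.11 CPM (log2 fold change 1.37, SE 0.16, adjusted p = 0.000108). Slc38a5 (SNAT5) fell 3.2-fold, its libraries moving from 3.17, 3.38 and 1.57 CPM to 1.0, 1.03 and 0.625 CPM (log2 fold change -1.68, SE 0.37, adjusted p = 0.00425). No library of either gene overlapped between the states. Slc38a5 passed the filter through ESC alone, which favoured a fall.

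Among lysosomal members, the arginine sensor rose and the glutamine exporter fell. Slc38a9, a lysosomal carrier that reports arginine to mTORC1 (ENSMUSG00000047789, chromosome 13, 112660751 to 112738749), stood at 9.03, 10.2 and 9.67 CPM in ESC and 21.4, 20.1 and 17.5 CPM in EpiLC. It rose 2.03-fold (log2 fold change 1.02, SE 0.12, adjusted p = 0.000119). Slc38a7, which exports glutamine from lysosomes (ENSMUSG00000036534, chromosome 8, 95835920 to 95853539), was lower by 1.55-fold, at 53.6, 52.2 and 59.8 CPM in ESC against 32.7, 36.2 and 38 CPM in EpiLC (log2 fold change -0.63, SE 0.09). Slc38a10, a member whose role is less well known, stood at 159, 156 and 165 CPM in ESC and 95.9, 97.3 and 102 CPM in EpiLC, a fall of 1.62-fold (log2 fold change -0.70, SE 0.06). Neither gene overlapped between the states. Slc38a6 was at 6.13 ± 0.494 and 7.17 ± 0.432 CPM and was not called. Slc38a8 was counted 62 times in ESC and 3 times in EpiLC (ratio 12.8, exact 95% interval 4.19 to 63.9), and Slc38a11 had 2 and 3.

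The 2 tested Slc36 carriers differed in direction. Slc36a4 (ENSMUSG00000043885, chromosome 9, 15709738 to 15743361) stood at 1.45, 0.946 and 0.784 CPM in ESC and 7.03, 8.04 and 9.29 CPM in EpiLC. It rose 7.40-fold (log2 fold change 2.89, SE 0.24, adjusted p = 1.66e-05). Slc36a4 passed the filter through EpiLC alone, which favoured a rise. Slc36a1, which sits on lysosomes, went from 11.7, 11.7 and 12.4 CPM to 9.23, 9.41 and 8.30 CPM, and fell 1.32-fold (adjusted p = 0.0146). That call was lost without EpiLC replicate 3 (adjusted p = 0.0622). Slc36a1 held 91.7 ± 1.64% of the family's level per kilobase in ESC and 56.7 ± 5.12% in EpiLC, where Slc36a4 held 42.5 ± 4.59%. Slc36a2 had 4 counts in ESC and 2 in EpiLC, and Slc36a3 had 0 in every library.

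All 3 Slc43 genes rose (32.0% of all genes were higher). Slc43a1, which encodes LAT3, a carrier of leucine and other large neutral amino acids (ENSMUSG00000027075, chromosome 2, 84838850 to 84863594), stood at 12.6, 11.2 and 10.7 CPM in ESC and 19.9, 24.9 and 26.2 CPM in EpiLC (log2 fold change 1.04, SE 0.13, adjusted p = 0.000212). Slc43a2, which encodes the related LAT4 (ENSMUSG00000038178, chromosome 11, 75531694 to 75577575), stood at 6.17, 6.44 and 7.14 CPM in ESC and 26.3, 29.0 and 31.7 CPM in EpiLC. It rose 4.43-fold (log2 fold change 2.15, SE 0.12, adjusted p = 2.00e-06). Slc43a3, known as a carrier of purine nucleobases and not of amino acids, stood at 2.91, 2.97 and 3.31 CPM in ESC and 11.2, 12.9 and 12.9 CPM in EpiLC, a 4.07-fold rise (log2 fold change 2.03, SE 0.14). Each of the 3 had its lowest EpiLC library above its highest ESC library. The family stayed small beside LAT1: its sum was 15.0 ± 1.63 CPM per kilobase in EpiLC, against 89.5 ± 10.6 for Slc7a5 alone.

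The Slc6 family lost its most abundant members in part and gained a neutral amino acid carrier. Slc6a6, which carries taurine (ENSMUSG00000030096, chromosome 6, 91684053 to 91759066), stood at 225, 202 and 201 CPM in ESC and 132, 127 and 132 CPM in EpiLC, a 1.61-fold fall (log2 fold change -0.69, SE 0.07, adjusted p = 4.28e-05). Slc6a8, which carries creatine (ENSMUSG00000019558, chromosome X, 73673150 to 73682502), stood at 83.2, 82.2 and 96.5 CPM in ESC and 50.2, 51.4 and 42.9 CPM in EpiLC, a 1.81-fold fall (log2 fold change -0.86, SE 0.10). Neither gene overlapped between the states, and neither carries a proteinogenic amino acid. Slc6a15, a carrier of branched-chain amino acids and proline (ENSMUSG00000019894, chromosome 10, 103367783 to 103419377), stood at 16.1, 18.4 and 16.2 CPM in ESC and 73.7, 65.9 and 66.7 CPM in EpiLC. It rose 4.05-fold (log2 fold change 2.02, SE 0.09, adjusted p = 7.58e-07). Its share of the family's level per kilobase went from 6.91 ± 0.689% to 33.3 ± 1.40%, next to 36.8 ± 1.18% for Slc6a6 in EpiLC.

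Of the neurotransmitter carriers, Slc6a7, a proline carrier known from brain (ENSMUSG00000052026), stood at 5.34, 5.63 and 5.23 CPM in ESC and at 0, 0.0855 and 0 CPM in EpiLC. That was 288 counts against 1 (ratio 179, exact 95% interval 31.8 to 7083), and it fell with an adjusted p of 9.59e-07 by edgeR. Without EpiLC replicate 2, where the 1 count lay, its fitted log2 fold change went from -7.12 to -9.33. Slc6a7 passed the filter through ESC alone, which favoured a fall. Slc6a9, a glycine carrier, rose 1.34-fold from 9.03, 8.61 and 9.15 CPM to 10.1, 13.1 and 12.5 CPM (adjusted p = 0.0217, 0.00588 to 0.101 over the alternatives). It missed the threshold by DESeq2 (0.0702), without the filter on low counts (0.0706), without ESC replicate 1 (0.0574) or 2 (0.0791) and without EpiLC replicate 2 (0.101) or 3 (0.0849). It is uncertain, since 27.8% of its exon bases overlap Ccdc24 on the opposite strand, and Ccdc24 was higher in EpiLC (log2 fold change 1.77).

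Some other Slc6 members rose to just over 1 CPM. Slc6a2 and Slc6a17 passed the filter through EpiLC alone, which favoured a rise. Slc6a2, the noradrenaline carrier, stood at 0.117 ± 0.132 CPM in ESC and 1.23 ± 0.157 CPM in EpiLC, a log2 fold change of 3.12 (4.14 with ESC replicate 1 left out). Slc6a17, a carrier of synaptic vesicles, stood at 0.155 ± 0.0195 CPM in ESC and 1.41 ± 0.320 CPM in EpiLC, a log2 fold change of 3.14 (SE 0.36). Slc6a11, a GABA carrier, was at 0 in every ESC library and had 42 counts in EpiLC, at least 22.6-fold higher against a floor of 3 counts over the ESC group. Slc6a12, which carries betaine and GABA, went the other way, with 33 counts in ESC and 0 in EpiLC (at least 6.83-fold lower). Slc6a14, a carrier of neutral and cationic amino acids, was counted once in ESC and 29 times in EpiLC (ratio 46.7, exact 95% interval 7.75 to 1909). These last 3 were not tested, like the other 8 untested Slc6 genes, whose sums over the 6 libraries were at most 54 counts (Slc6a16, 46 in ESC and 8 in EpiLC). The serotonin carrier Slc6a4 had 1 and 16 counts, the dopamine carrier Slc6a3 15 and 14, and the glycine carrier Slc6a5 6 and 0. Slc6a13 had 6 and 12, Slc6a19 0 and 5, Slc6a21 2 and 1, and Slc6a18 had 0 in every library.

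Lists of related genes were counted in the same fit, in which 64.6% of all genes were called, 32.0% higher and 32.6% lower. Of 26 genes of the ATF4 amino acid response, 5 were higher, 11 lower and 10 not called (median log2 fold change -0.13, against 0.01 over all genes), with 8 higher under library totals. The share called, 61.5%, was near that of all genes. Atf4 itself was not called (314 ± 18.4 and 282 ± 21.5 CPM, adjusted p = 0.104). Asns, asparagine synthetase, fell 3.77-fold from 1617, 1576 and 1719 CPM to 460, 401 and 441 CPM. Cth, which makes cysteine from cystathionine, fell 2.86-fold from 370 ± 57.5 CPM, and the stress gene Nupr1 11.2-fold from 42.3 ± 9.07 CPM. The 5 higher genes were Cebpb, Atf3, Stc2, Vldlr and Ppp1r15a, named after their values were seen.

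Of 20 cytosolic aminoacyl-tRNA synthetases, which load amino acids onto tRNA, 0 were higher, 17 lower and 3 not called by edgeR's quasi-likelihood test (median -0.35), against 32.0% of all genes higher and 32.6% lower. The count higher was also 0 by DESeq2, 0 at an unadjusted p under 0.05, and 1 without ESC replicate 3. Most falls were small. Qars, for glutamine, fell 2.01-fold from 349 ± 35.1 to 173 ± 4.01 CPM, Tars 1.77-fold and Aars 1.68-fold. In ESC replicates 1 to 3 Aars was at 1035, 1056 and 1582 CPM. Without replicate 3 its fall was 1.45-fold. Replicate 3 was the highest ESC library for Aars, as it was for Slc1a1, Slc7a5, Slc7a2, Slc7a6 and Slc7a11. It was the lowest ESC library for Slc1a3, Slc7a3, Slc7a7, Slc38a2 and Slc38a5, and for the synthetase gene Qars. Of the 39 tested transporters, 12 (30.8%) lay more than 0.5 on the log2 scale from the mean of the other ESC libraries in replicate 3, against 20.3% of all genes.

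Of 39 genes of amino acid sensing by mTORC1, 14 were higher, 10 lower and 15 not called (median 0.16), a share called of 61.5%, near the 64.6% of all genes. The count of 14 was 9 without EpiLC replicate 2 or 3 and 9 without the filter on low counts. Castor2, related to an arginine sensor, rose 4.89-fold from 5.24 ± 0.976 to 25.1 ± 0.814 CPM, and Sesn3, of the sestrin family of leucine sensors, 2.62-fold to 92.8 ± 1.78 CPM. Rragb, a Rag GTPase, rose 3.13-fold with 23.3, 26.7 and 5.49 CPM in ESC, where replicate 3 was the lowest, and 2.37-fold without that library. Of 16 tested carriers outside the 7 families, 2 were higher, 8 lower and 6 not called (median -0.38), a share called of 62.5%, also near that of all genes. Slc15a1, a peptide carrier, fell 15.9-fold from 19.6 ± 0.786 to 1.22 ± 0.114 CPM, and Slc25a12, a mitochondrial aspartate and glutamate carrier, 4.96-fold from 48.9 ± 8.16 CPM. Slc16a10, a carrier of aromatic amino acids, rose 4.93-fold to 21.2 ± 0.372 CPM. The 8 lower were 12 without ESC replicate 3, and the 2 higher were 5 without the filter.

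**Figure D5:**
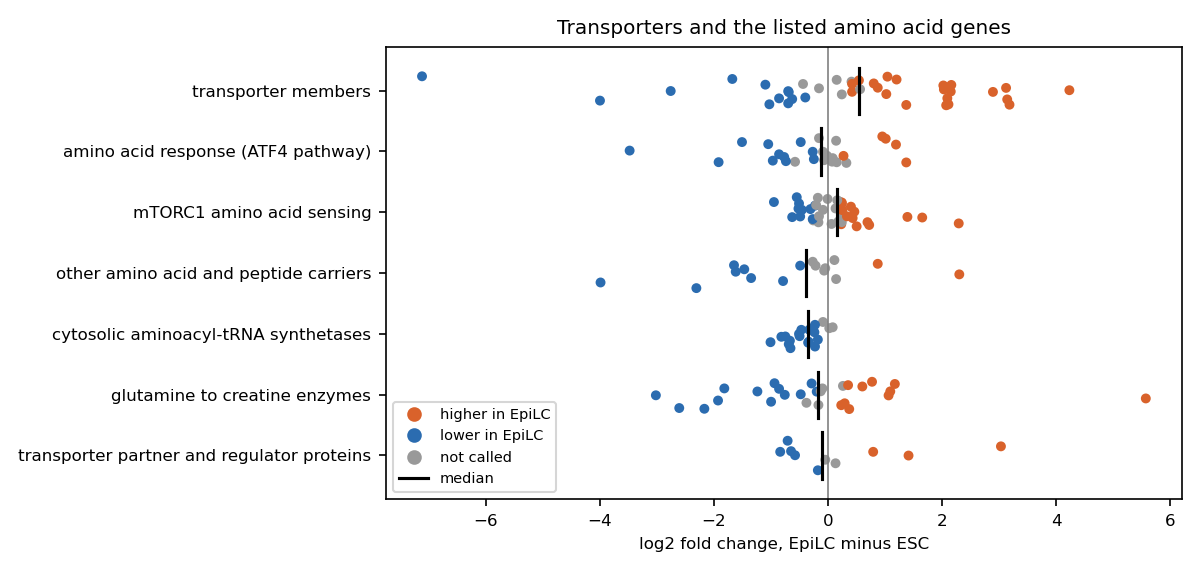
Log2 fold change, EpiLC minus ESC, of the 39 tested transporters and of the tested genes of 6 lists of related genes; each point is a gene, orange called higher, blue called lower and grey not called, with vertical scatter for legibility and a black line at the median. The synthetases lie between -1.01 and 0.08, while the transporters run from -7.12 to 4.23.

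Among 28 tested enzymes of glutamine, glutathione, branched-chain, polyamine and creatine metabolism, 10 were higher, 13 lower and 5 not called (median -0.19), with 6 higher without the filter, against 32.0% of all genes higher and 32.6% lower. Gatm, the first enzyme of creatine synthesis, rose 47.6-fold from 0.334 ± 0.148 to 17.4 ± 0.520 CPM. Its ESC level lay under the filter's limit of 0.872 CPM, so it was tested through EpiLC alone. Gamt, also of creatine synthesis and named after its values were seen, fell 3.82-fold from 2.75 ± 0.47 to 0.713 ± 0.254 CPM. Ckb, a creatine kinase, fell 8.09-fold from 701 ± 163 to 86.6 ± 9.16 CPM, beside the fall of the creatine carrier Slc6a8. Cdo1, the first enzyme from cysteine towards taurine, fell 6.11-fold from 27.8 ± 1.78 CPM, beside the fall of the taurine carrier Slc6a6. Of 10 tested partners and regulators of the carriers, 3 were higher and 5 lower (32.0% and 32.6% of all genes). Itgb1, the integrin chain that binds CD98, rose 2.66-fold to 778 ± 27.1 CPM, and Cd44, which steadies xCT at the membrane, 8.19-fold to 6.52 ± 0.938 CPM. In ESC Cd44 was at 0.763 ± 0.146 CPM, a mean under the filter's limit of 0.872 CPM. Nedd4l, a ubiquitin ligase, fell 1.79-fold.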

How the data were processed

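Total RNA of 3 ESC and 3 EpiLC libraries was measured. Groups and replicate numbers came from the sample titles. The authors deposited raw read counts per Ensembl gene. Per the submitters' processing notes, cutadapt, STAR, featureCounts and DESeq2 were used with build mm10. Per the labels' protocols, about 100 ng of RNA depleted with Ribo-Zero Gold went into a Kapa stranded kit. The strand setting, tool versions and annotation release were left unstated (not given in the sources used here), so overlaps with genes on the opposite strand are given for the members they touch.

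The 92 spike-in rows held 0 counts and were left out. Of 51826 Ensembl rows, 51633 matched GENCODE M21 on GRCm38, the assembly of mm10, which gave symbols, positions and exon lengths. Counts were tested across all genes with edgeR 4.0.16 in R 4.3.3 (quasi-likelihood, legacy option off, TMM, filterByExpr with a minimum of 10 counts and 15 in total, group as the single term). P-values are two-sided and Benjamini-Hochberg adjusted over 14996 genes. CPM use TMM-scaled totals. CPM per kilobase divide by the union of protein-coding exons. Where a group held 1 to 3 counts, the ratio has an exact (Clopper-Pearson) 95% interval that covers counting error only.

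Named were members with at least 1 CPM in the higher group or a call, with values per library for the largest changes of each family, and up to 3 called genes per list with the largest change and at least 5 CPM. The result of 1 tested Slc6 member is not reported here, though it enters the counts and sums. Members, lists and tests were chosen with earlier results of these data known. The sums over cationic, light-chain and system A carriers were chosen after values were seen. Alternatives were DESeq2 1.42.0, upper quartile scaling, library totals, no filter, a replicate block, each library left out, and length of the longest transcript.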

Additional observations from a re-analysis of the deposited data

How the results depend on the processing

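Over 11 alternatives, 29 of 33 called transporters kept their direction and call. Of the 6 not called, Slc7a8 changed sign without ESC replicate 3 (0.14), and ran from -0.84 to 0.14 with a library left out. The 4 that lost a call in at least 1 alternative were Slc1a1, Slc6a9, Slc36a1 and Slc38a1. Another 4 of those not called passed in at least 1 (Slc1a4, Slc3a2, Slc7a2 and Slc7a5). The counts of 21 higher, 12 lower and 22 with at least 2-fold ran from 19 to 26, 11 to 14 and 21 to 24 when 1 library was left out. By DESeq2 they were 24, 15 and 27. Without the filter on low counts 23 were higher, 18 lower and 29 at least 2-fold different. Over all genes, 8514 to 11730 were called with a library left out, the most without ESC replicate 3. The scalings moved the median gene by at most 0.07 on the log2 scale.

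Under library totals 8 genes of the amino acid response were higher. Without the filter 9 genes of mTORC1 sensing, 5 carriers outside the families and 6 of the metabolic enzymes were higher. With a library left out, higher mTORC1 genes ran from 9 to 14, carriers from 2 to 3, synthetases from 0 to 1. By the longest transcript, Slc7a3 made up 47.0% of Slc7 and Slc38a2 36.8% of Slc38 in EpiLC, Slc38a4 39.0% of Slc38 in ESC, and Slc43a1 40.6% of Slc43 in EpiLC. With the replicate number as a block, 22 members were higher, 12 lower and 9231 of all genes were called. Correlations of deviations from the state mean, between libraries of the same number, were -0.0853, -0.00587 and -0.149 for replicates 1 to 3. With 3 libraries per state and ESC replicate 3 apart, these values cannot show whether the numbers pair the samples. Depth limits the members under 1 CPM, where few counts set the fold.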
